A study of Arabidopsis thaliana with 12 samples.

Results

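CCL (CCR-like, locus AT3G26740, chromosome 3) was measured in Arabidopsis thaliana by 1 array probe, probe 2653, of 3439 probes in all, and is 1 of 651 named genes measured. It was the probe whose annotation names this locus and no other, and no probe annotated to several genes included it. The conditions compared were plants grown under photosystem II light and treated with DCMU (6 arrays) and plants grown under the same light without DCMU (6 arrays). All plants were wild type of the ecotype C24, and total RNA was used. Plant age, the tissue taken, the dose and duration of DCMU and the time of day at harvest are not stated in the labels. The number of arrays limits the precision of every value.

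CCL is known as a transcript under light and circadian control. Its mRNA is short-lived, and its decay rate is itself known to change with the time of day, as is that of the dark-inducible transcript SEN1. The herbicide DCMU, also called diuron, stops photosystem II from passing electrons on to plastoquinone, so that the pool of this carrier is no longer reduced by it. Plastoquinone redox state is one of the signals through which light is known to reach nuclear genes for photosynthesis.

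CCL was chosen by its measured change in this comparison, in which 12 of the 651 named genes had a larger rise. Its level and its change are therefore given as a description, with no test. Levels are in the authors' scaled intensity units, in which array totals ran from 3643 to 3768 and the median probe of an array from 0.596 to 0.687. A probe's brightness also depends on how well it binds its target, so a rank among probes is not a rank of transcript amounts.

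In DCMU-treated plants, CCL stood at 7.85 and 6.89 on arrays 1 and 2, at 7.56 and 7.25 on arrays 3 and 4, and at 9.29 and 9.07 on arrays 5 and 6. In untreated plants it stood at 5.31 and 4.99 on arrays 1 and 2, at 6.36 and 6.07 on arrays 3 and 4, and at 5.02 and 4.48 on arrays 5 and 6. Every DCMU array lay above every untreated array, but the gap was narrow: the lowest DCMU array, number 2, was 1.08 times the highest untreated array, number 3. Arrays 5 and 6 were the highest of the DCMU group and arrays 3 and 4 the highest of the untreated group. Such a separation of 6 against 6 arrays, higher with DCMU, was seen in 9.82% of all 3278 features (a feature is a named gene or a probe without a single gene name, after dim probes were left out).

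**Figure D1:**
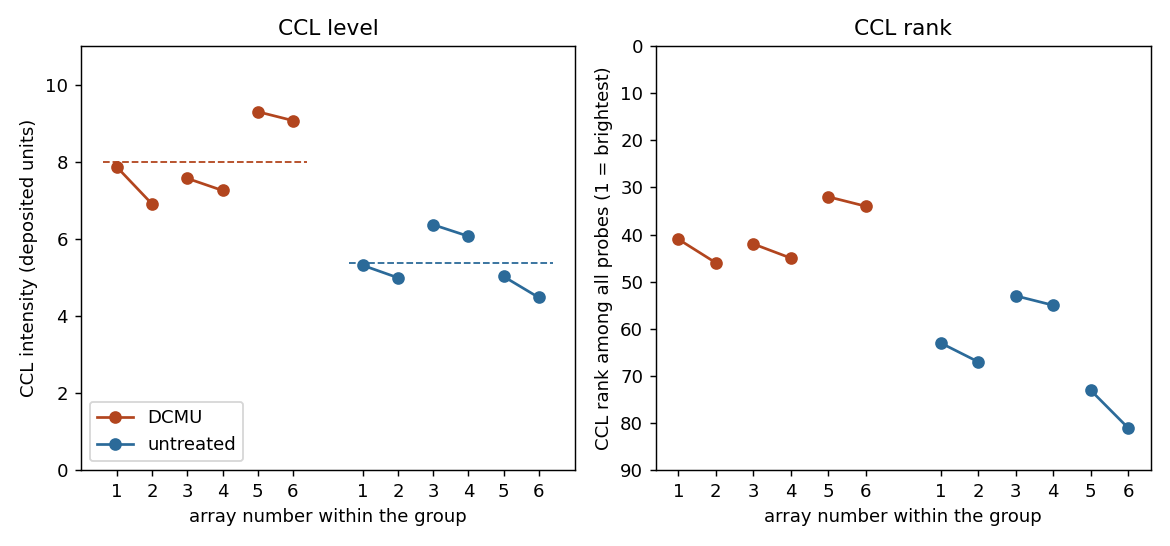
CCL on each of the 12 arrays. The left panel plots the intensity in the authors' scaled units and the right panel the rank among all 3439 probes (1 is the brightest), with DCMU arrays in orange left of untreated arrays in blue, lines joining the arrays numbered 1-2, 3-4 and 5-6, and dashed lines at the mean of 6 arrays. DCMU arrays lie between 6.89 and 9.29 and untreated arrays between 4.48 and 6.36.

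The arrays fell into number pairs. Taken over all features, the arrays' distances from their group mean had correlations of 0.36 to 0.67 between arrays 1 and 2, 3 and 4, and 5 and 6, and of -0.58 to -0.11 between other arrays of a group. Distances from a group mean cancel out within each feature, which by itself favours negative correlations. Given the positive correlations inside the pairs, each pair gave 1 replicate, the mean of its log2 levels, 3 per group. The labels do not say whether the pairs came from separate plantings, so their spread may be technical. On these replicates CCL averaged 7.98 ± 1.04 in DCMU-treated plants and 5.37 ± 0.760 in untreated plants (SD, n = 3 each), a 1.49-fold difference or 0.57 on the log2 scale.

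The size of the difference varied over the number pairs. For numbers 1-2 the level was 7.36 with DCMU and 5.15 without, 1.43-fold higher. For numbers 3-4 it was 7.41 with DCMU and 6.21 without, 1.19-fold higher. For numbers 5-6 it was 9.18 with DCMU and 4.74 without, 1.94-fold higher. CCL was thus higher with DCMU in 3 of 3 number pairs, as were 40.1% of all features, and its log2 change varied with an SD of 0.35 over the pairs. The median SD over all features was 0.15, and 6.10% of features had a larger one. Among the 92 features within 2-fold of the mean level of CCL it was 0.34, and 40 had a larger SD than CCL. The median log2 change of all features had the same order of sizes, at 0.10, 0.03 and 0.13 for numbers 1-2, 3-4 and 5-6. That of the 92 features within 2-fold of the mean level of CCL did not, at -0.004, 0.06 and -0.04. Array by array, the same number compared across groups gave folds for CCL of 1.48, 1.38, 1.19, 1.196, 1.85 and 2.02 for numbers 1 to 6.

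The deviations behind these folds ran in opposite directions in the groups for numbers 3-4 and 5-6. On the log2 scale, numbers 5-6 lay 0.21 above the group mean with DCMU and at -0.17 without. Numbers 3-4 lay at -0.10 with DCMU and 0.22 above the group mean without. For numbers 1-2 both deviations were negative, -0.11 with DCMU and -0.05 without. Taken over all features, deviations of the same numbers correlated between the groups at 0.38 to 0.44. Such moderate correlations leave room for many features with opposite deviations, and their share was not counted.

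**Figure D2:**
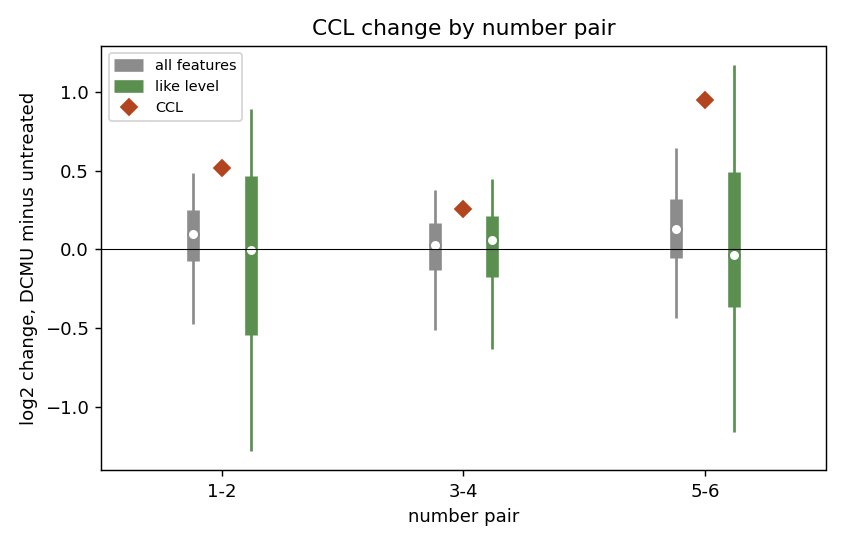
Change of CCL by number pair, as log2 level with DCMU minus log2 level without (diamonds). Grey marks all 3278 features and green the 92 features within 2-fold of the mean level of CCL: white dots are medians, thick bars run from the 25th to the 75th percentile and thin bars from the 5th to the 95th. CCL lies above 0 in each pair, at 0.52, 0.25 and 0.95.

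The means of the 3 number pairs of CCL spanned 0.32 on the log2 scale with DCMU and 0.39 without, more than any gap inside a pair. Single pairs lay closer: numbers 1-2 and 3-4 with DCMU, at 7.36 and 7.41, differed by less than the arrays inside either of them. The gap between the arrays of a pair ran from 0.04 to 0.19 on the log2 scale, with a mean of 0.10, and the median feature had the same mean gap, 0.10. CCL was brighter on the odd-numbered array than on its even-numbered partner in all 6 pairs of both groups. Of all features, 6.22% showed that order in all 6 pairs, and the median difference of all features between partners, odd minus even, ran from -0.0149 to 0.0113 on the log2 scale. The largest gap, 0.19, was between DCMU arrays 1 and 2.

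CCL was among the bright probes on every array. It ranked between 32 and 46 of 3439 on the DCMU arrays and between 53 and 81 on the untreated arrays. A common scaling factor of an array cannot move these ranks. They restate the separation of the levels, and the share of all probes with ranks apart was not counted. By mean level over all 12 arrays the rank of CCL was 48 of all probes. Relative to the median probe of the same array it stood at 12.1 ± 1.57 times in DCMU-treated plants and 8.56 ± 1.06 times in untreated plants (SD, n = 3 replicates each). In these units the groups overlapped narrowly: the lowest DCMU array was at 10.03 times and the highest untreated array at 10.1 times its median. Array medians themselves ran from 0.632 to 0.687 with DCMU and from 0.596 to 0.645 without. The part of this shift in array medians in the change of CCL was not tested. With arrays centred on their medians the log2 change was 0.50 (1.41-fold), with 0.44, 0.26 and 0.80 for numbers 1-2, 3-4 and 5-6.

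Set among all features, the rise of CCL was large in rank but not extreme among bright probes. The median feature changed by 0.10 on the log2 scale, and 57 features, 1.74%, had a larger rise than CCL. For numbers 5-6 CCL had the 32nd largest rise of 3278 features, for numbers 1-2 the 129th and for numbers 3-4 the 441st. Among the 651 named genes, 12 had a larger rise. Of the 92 other features whose mean level lay within 2-fold of the 6.51 of CCL, 12 had a larger rise. These features of like level were spread widely to both sides, 43 above 0 and 49 below, with a median of -0.05. Their median SD over number pairs was 0.34, close to the 0.35 of CCL, and 40 of them had a larger SD.

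Differences across all features were tested with limma (3 replicates per group, Benjamini-Hochberg adjustment over all 3278 features, threshold 0.05). The test called 167 features, 5.09%, with 1.92% higher and 3.17% lower in DCMU-treated plants. With the number pair as a block it called 566, 17.3%, with 10.7% higher and 6.56% lower. After median centring the blocked fit called 15.3%, of which the higher features made 5.34% of all and the lower ones 9.98%. In the features of like level to CCL 17 of 92 were called, 18.5%, with 6 higher (6.52%) and 11 lower.

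**Figure D3:**
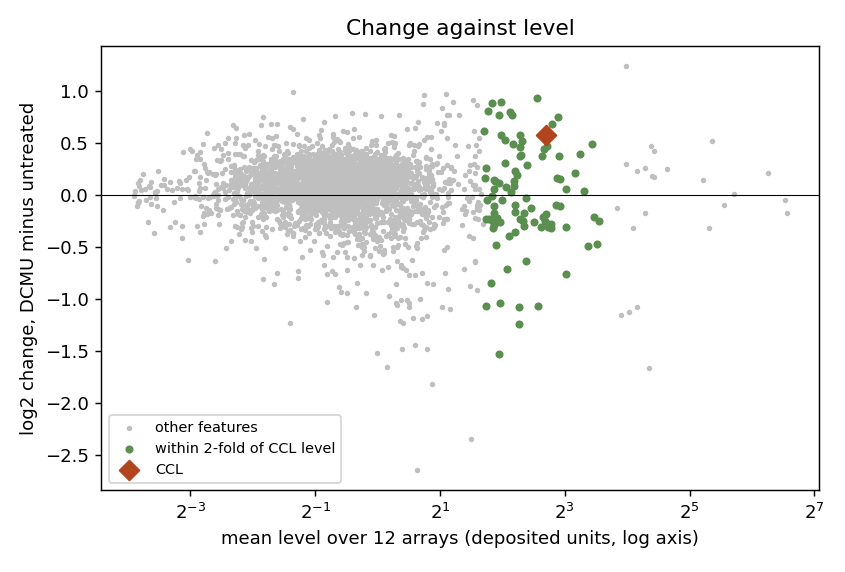
Change against level for all 3278 features. The horizontal axis is the mean level over 12 arrays in the authors' scaled units (log axis), the vertical axis the log2 change, DCMU minus untreated; green points are the 92 features within 2-fold of the level of CCL, and the diamond is CCL at 6.51 and 0.57. The green points lie on both sides of 0, and 12 of them lie above CCL.

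The named genes next to CCL in brightness did not share a direction. Next above it stood AT1G62250, AT4G19900 and AT3G13150, with log2 changes of -0.28, 0.17 and 0.75, and next below it AT3G26630, CUTA and AT4G39690, with 0.52, -0.23 and 0.06. CUTA is a plastid relative of a bacterial copper tolerance protein. None of these 6 genes passed limma's test without the block, which called 5.09% of all features and 18.5% of those of like level, and 2 had an unadjusted p under 0.05. AT3G13150, with the largest change of the 6, lay between 7.23 and 13.5 with DCMU (median 9.26) and between 5.06 and 7.31 without (median 5.40), so its groups just overlapped (limma, adjusted p = 0.0507). With the block it passed (limma, adjusted p = 0.00687, and 0.0217 after median centring), as did AT3G26630 before centring (limma, adjusted p = 0.0325, and 0.0683 after it).

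Few genes of the clock and of light signalling had a probe of their own. Of 24 loci of the circadian oscillator 1 was measured, of 27 known clock outputs 1, and of 31 photoreceptor and light signalling loci, 8 other short-lived transcripts, 21 mRNA decay factors and 20 dark or low-sugar transcripts none was named and measured. The oscillator gene was RVE6, a MYB-like factor of the family that binds evening elements in clock-controlled promoters. RVE6 lay between 0.251 and 0.323 with DCMU (median 0.272) and between 0.223 and 0.315 without (median 0.263). The groups overlapped almost wholly, and the log2 change was 0.06 (limma, adjusted p = 0.747, 95% interval -0.17 to 0.29), at a level near the dim end of the array.

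The clock output was LHCB1.5, a chlorophyll a/b-binding antenna protein of photosystem II. It lay between 8.23 and 11.05 with DCMU (median 10.5) and between 18.7 and 25.4 without (median 22.7). LHCB1.5 fell 2.22-fold (limma, adjusted p = 0.000912), and its groups did not overlap, as in 5.61% of all features in that direction. CCL and LHCB1.5 therefore stood apart in opposite directions on the same arrays. Unlike that of CCL, the log2 change of LHCB1.5 was nearly even over the number pairs, at -1.07, -1.17 and -1.22. Its probe may also report near-identical members of its family.

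Of 7 loci beside CCL on chromosome 3, AT3G26730 alone was named and measured, and it is the next gene in order. AT3G26730 lay between 0.653 and 1.12 with DCMU (median 1.01) and between 0.676 and 1.14 without (median 0.968). Its log2 change was -0.02 (limma without the block, 95% interval -0.44 to 0.41, adjusted p = 0.968). This interval leaves changes of modest size in either direction possible, but the fit behind it leaves the number pairing out. By number pair, in the order of the numbers, the log2 change of AT3G26730 was 0.03, -0.11 and 0.04, well inside that interval. With the block it did not pass either (limma, adjusted p = 0.922). None of 14 genes known for root expression had a probe of its own, so root RNA could not be checked.

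Genes with a pattern like that of CCL were ranked by Pearson's r on log2 levels over the 12 arrays, among the other 650 named genes. The arrays share number pairs, scaling and the treatment difference, so they are not 12 independent points, and r is a description only. Across all features the median r with CCL was 0.30 and 9.31% had r over 0.8, so a high r with CCL was not rare. Deviations from the group mean, from which the treatment difference is removed, gave a median r of 0.08, with 1.099% of features over 0.8.

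XERICO, a RING-type protein known to raise abscisic acid levels, had the highest r, 0.95, and 0.88 on deviations. It lay between 2.45 and 3.11 with DCMU (median 2.77) and between 1.89 and 2.63 without (median 2.001). The change of XERICO was smallest for numbers 3-4 and largest for numbers 5-6, at 0.34, 0.14 and 0.65 on the log2 scale in the order of the numbers. CCL had that order too, which the choice by r favours. The median changes of all features, 0.10, 0.03 and 0.13, were also in that order. XERICO did not pass limma's test (log2 change 0.37, adjusted p = 0.125). The blocked fit called it (limma, adjusted p = 0.0366), but not once arrays were median-centred (limma, adjusted p = 0.0672).

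Next in likeness were AT1G50880 (r = 0.95), AT5G02050 (0.93), AT5G52960 (0.93), AT4G39760 (0.92), AT1G50770 (0.92), AT2G28390 (0.92) and AT2G30100 (0.91). All 8 genes had positive log2 changes, against 67.4% of all features, which the choice by r over both groups favours, and 6 of 8 had groups of arrays that did not overlap, against 9.82% of all features in that direction. The choice by r favours that separation too, so neither count is a result about these genes. AT4G39760, an F-box kelch-repeat protein, had the largest change among them, 0.87 (limma, adjusted p = 0.00410). AT1G50880 was at 0.58 (limma, adjusted p = 0.0300). It lost its call in 5 of 6 unblocked fits that left out 1 replicate (limma, highest adjusted p = 0.137 without untreated numbers 1-2). AT2G28390 (MON1), a vesicle-trafficking protein whose transcript is widely used as a reference in quantitative PCR, was at 0.24 (95% interval 0.01 to 0.47; limma, adjusted p = 0.195). With the block, 4 of the 8 passed, where 10.7% of all features were called higher and the choice again favours calls: XERICO and AT5G52960 beside AT4G39760 and AT1G50880. AT5G52960 changed by 0.45 on the log2 scale (limma, adjusted p = 0.0173 with the block and 0.0781 without it).

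The list of like genes changed with the number pairs included. Without DCMU numbers 5-6, 2 of the 8 were still among the 8 highest, without DCMU numbers 1-2 or untreated numbers 1-2 it was 4, and without untreated numbers 3-4 or 5-6 it was 5. Without DCMU numbers 3-4 it was 6.

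By deviations alone, the genes most like CCL were AT2G30100 (0.88), XERICO (0.88), AT5G56070 (0.87), AT4G32060 (0.86) and AT5G06410 (0.85). AT4G32060 is a mitochondrial calcium uptake regulator and AT5G06410 a co-chaperone of iron-sulfur cluster assembly. AT4G32060 hardly differed between the groups, with 2.68 to 3.38 with DCMU (median 2.98) and 2.57 to 3.30 without (median 2.70), a log2 change of 0.09 (95% interval -0.18 to 0.36). It followed CCL from array to array inside each group, which the choice by deviations favours, and not in the difference between them. Of these 5 genes 0 passed limma's test without the block, 1 had an unadjusted p under 0.05, and 1 passed with the block, against 5.09% of all features called without the block and 17.3% with it.

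The strongest opposite pattern was that of AT3G18870, of the mTERF family of organelle gene expression factors, with r = -0.96 and -0.82 on deviations. It lay between 0.956 and 1.13 with DCMU (median 1.07) and between 1.29 and 1.71 without (median 1.502), and the groups did not overlap. AT3G18870 fell 1.41-fold (limma, adjusted p = 0.0430), by 0.42, 0.29 and 0.77 on the log2 scale for numbers 1-2, 3-4 and 5-6. The order of sizes was that of CCL, which the choice by r favours. AT3G18870 lost its call in 5 of 6 unblocked fits that left out 1 replicate (limma, highest adjusted p = 0.160 without untreated numbers 1-2). With the block and all replicates it passed (limma, adjusted p = 0.00874, and 0.0118 after median centring). That blocked fit called 6.56% of all features lower. The protein kinase ATSIK (r = -0.93), the TIR-NBS family gene AT3G04210 (-0.90) and AT3G07790 (-0.87) came next, with log2 changes of -0.26, -1.19 and -0.12. Of these 3, AT3G04210 passed the test (limma, adjusted p = 0.000261).

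**Figure D4:**
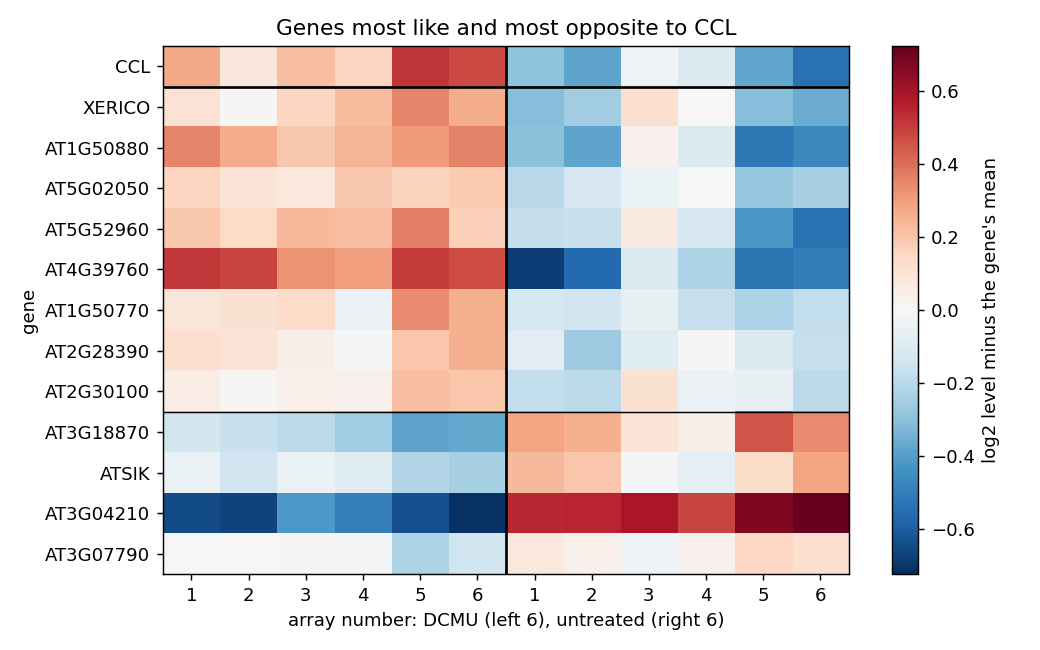
CCL, the 8 named genes with the highest r and the 4 with the lowest r over 12 arrays. Columns are arrays 1 to 6 with DCMU (left) and 1 to 6 without (right), and colour is the log2 level minus the mean of the gene over 12 arrays. In CCL the DCMU arrays 5 and 6 are highest and the untreated arrays 5 and 6 are low, and in AT3G18870 the colours are turned round.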

How the data were processed

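For each of 12 arrays, the authors deposited a linear spot intensity per probe. The authors' scaling is not given in the sources used here, nor are background, labelling and scanning. The deposited intensities had a ceiling of 100, reached by 2 probes, and 3.93% to 4.22% of values per array at 0. Of the 3439 probes, 692 had 1 gene in the platform annotation, 870 several and 1877 none. Symbols were updated through the RefSeq TAIR10.1 gene table (690 found), and no name was checked by sequence.

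A floor of 0.0669, the 1st percentile of values above 0, was applied before log2. The 160 probes at or under it on all arrays were left out and spots of 1 gene averaged, leaving 3278 features, 651 of them named. The group test was limma 3.58.1 (R 4.3.3), two-sided. It was run on simulated data with independent noise and no shared effect of the number pair, so that check does not cover paired replicates. Replicates of the same numbers correlated at 0.38 to 0.44 across groups (other numbers -0.38 to 0.01), which by a rule of over 0.1 in all 3 pairs counts as pairing. The main results come from the unblocked fit, which leaves this pairing out. It called fewer features (5.09%) than the blocked fit (17.3%), so a gene that did not pass it may pass with the block. Genes were named by rule: CCL, the 8 highest and 4 lowest r over 12 arrays, the 5 highest r of deviations, the 3 named genes next above and below in level, and measured members of 8 lists (150 loci). The gene, lists and rules were chosen with earlier results of these data known.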

Additional observations from a re-analysis of the deposited data

Results flagged for a closer look

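Both groups of 6 arrays were searched for an array far from the others in each of the 25 named genes, 50 groups in all, and chance flags about 1 in 20. In CCL no array stood apart in this way. In AT5G06410, DCMU array 5 stood at 0.358, away from the next highest DCMU array at 0.299, a gap of 0.738 of the range of the group.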

How the results depend on the processing

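The log2 change of CCL was positive in all alternatives run. Leaving out replicates could not turn its sign, because every DCMU array lay above every untreated array. The block cannot move the estimate, as each number pair is in both groups. The change was 0.57 as scaled and with the replicate block, and 0.50 after median centring (also with the block). It was 0.56 after quantile normalization, and 0.47 to 0.68 when 1 replicate of 1 group was left out. Leaving out the same numbers in both groups, chosen after seeing the data, gave 0.38 without numbers 5-6, 0.60 without 1-2 and 0.73 without 3-4. The mean-level rank of 48 among all probes became 11 among named genes, by construction, and 44 to 52 without 1 replicate. The count of called features was 167, and 566 with the replicate block, 502 when median centring was added to it, 1089 with all 12 arrays as separate replicates and 77 to 282 without 1 replicate. Of these, 77 were called without DCMU numbers 1-2, 90 without DCMU numbers 5-6, 82, 282 and 87 without untreated numbers 1-2, 3-4 and 5-6. The other settings gave 150 to 206. The 1 call in the gene lists, LHCB1.5, was 1 call in all of them. The alternatives for the lists were added after seeing the data. Of the 8 genes most like CCL, 6 remained after median centring and with Spearman's rho, 5 over the 6 number-pair means and 2 to 6 without 1 replicate. The cause was not tested. Without background values, dim probes such as that of RVE6 cannot be told from none.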
